A study of Mus musculus with 12 samples.

Results

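Replication-dependent histone genes were followed through 3 RNA fractions of mouse embryonic stem (ES) cells with and without Drosha. Every row whose gene name begins with Hist1h, Hist2h, Hist3h or Hist4h was taken, which gave 69 of the 36883 rows of each deposited table. By the class in the gene name, 6 rows encoded H1, 20 H2A, 19 H2B, 11 H3 and 13 H4. By cluster, 56 belonged to Hist1 on chromosome 13, 9 to Hist2 on chromosome 3, 3 to Hist3 on chromosome 11 and 1 to Hist4 on chromosome 6. RefSeq for GRCm38.p6 held 68 of them by name and overlap, listed 3 as pseudogenes (Hist1h2aj, Hist1h2al and Hist3h2bb-ps) and gave a strand and promoter for 60, of which 33 lay on the plus and 27 on the minus strand. The row Hist3h2a carried the name Trim17 as well, and the row Hist2h2aa2 carried Hist2h3c1 in the mRNA and short RNA tables, so these rows hold more than the histone gene. The row Hist2h2aa2 was counted as H2A, while its strand and promoter are those of Hist2h3c1, an H3 gene. Hist2h2bb and Hist2h3b lie within the same interval in the tables, and their values may share reads.

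H3 and H4 form the core of the nucleosome, H2A with H2B dimers complete it, and H1 binds the DNA between nucleosomes. Replication-dependent genes supply the bulk of these proteins while DNA is copied, and their clustered, mostly intronless genes are transcribed together in S phase. Their mRNAs end in a conserved stem-loop in place of a poly(A) tail. The stem-loop is bound by SLBP and is cut from the precursor with the help of the U7 small nuclear ribonucleoprotein. Selection on oligo-dT therefore collects mainly the minor polyadenylated forms of histone mRNA, while RNA that was not selected holds the stem-loop forms as well.

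Drosha is the nuclear ribonuclease that releases hairpins from primary microRNA transcripts, and the series title concerns its role in CG methylation. Wild-type and Drosha-deficient ES cells were grown in medium with fetal bovine serum and leukemia inhibitory factor. The methylation samples of these genotypes are labelled with the strain 129Sv/Ev, AB1 cells as the wild type and Drosha-deficient cells derived from AB1. The RNA samples are labelled only by genotype and fraction. Neither the number of clones nor the disrupted part of Drosha is stated in the labels. For each genotype there was 1 library of poly(A)-selected mRNA, 1 of long RNA and 1 of short RNA, 6 in all, made with a small RNA library kit. The table of long RNA was matched to the samples titled total RNA by elimination. Samples of Dnmt1-deficient cells were not analysed here.

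Levels are FPKM, fragments scaled by transcript length and by library size, as deposited. A difference is log2((Drosha-deficient FPKM + 1)/(wild-type FPKM + 1)). A row counted as measured where its status in the table was OK and either library held 1 FPKM or more, and it was called higher or lower from a difference of 1 in size, which is 2-fold on that scale. With 1 library per genotype and fraction no difference has a replicate check, and no test was made. The 3 tables were normalized separately, so a level in 1 fraction is not compared with a level in another. Fewer cells in S phase and less histone RNA per cell cannot be told apart in these bulk samples. On rows of 381 bases every value was a whole multiple of the smallest step within 0.02 fragments, and 1 fragment stood for 0.135 FPKM in the wild-type and 0.123 in the Drosha-deficient mRNA library, 0.155 and 0.134 in long RNA, and 1.03 and 1.01 in short RNA.

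The labels were checked on a few genes. Drosha had 42.1 FPKM in wild-type and 6.22 in Drosha-deficient mRNA, and in long RNA it had 21.2 and 4.34 FPKM. The ES cell factor Pou5f1 had 562 and 700 FPKM in mRNA, and none of the 8 ES cell markers was called in mRNA or in long RNA, where 7 were measured. Fibroblast markers were unequal between the genotypes. Of 8 measured in mRNA 6 were lower, against 7.93% of all measured rows. Of 8 measured in long RNA 7 were lower, against 6.89%. The summed mRNA level of all 10 markers went from 277 to 101 FPKM and their summed long RNA level from 159 to 57.5. Much of these sums was Vim, with 154 and 90.5 FPKM in mRNA and 111 and 54.6 in long RNA. Of the 10 markers Lum was at 0 in wild-type mRNA and in Drosha-deficient long RNA. The part of fibroblast RNA in the histone differences was not tested.

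Across the class, the direction depended on the fraction. In mRNA 15 of the 57 measured histone rows were higher in Drosha-deficient cells, against 8.64% of all measured rows, and 1 was lower, against 7.93%. The median difference of the histone rows was 0.39, while that of all measured rows was 0.01. In long RNA all 69 rows were measured, and 18 were lower, against 6.89% of all measured rows, and 7 higher, against 6.26%. Their median was -0.46, against -0.04 for all rows. In short RNA 34 of 60 measured rows were higher, against 14.8%, and 4 were lower, against 18.4%, with a median of 1.10 against -0.03. Rows of other genes that span 300 to 1000 bases, a length like that of histone genes, were called more often than rows at large. In mRNA 19.3% of them were higher and 15.1% lower, in long RNA 18.2% and 15%, and in short RNA 34.4% and 8.33%. The shares of histone rows were 26.3% and 1.75% in mRNA, 10.1% and 26.1% in long RNA and 56.7% and 6.67% in short RNA. Beside rows of like length, the mRNA share called higher is thus less far from the background than beside all rows.

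Summed over the 69 rows, histone mRNA went from 194 to 265 FPKM (1.37 times the wild-type sum), histone long RNA from 7428 to 5602 FPKM (0.754 times) and histone short RNA from 2558 to 5909 FPKM (2.31 times). The histone rows ranked low in the poly(A)-selected libraries and high in the others. Their median level was at percentile 23.0 of all measured rows in wild-type mRNA and 28.4 in Drosha-deficient mRNA. In long RNA the median histone row stood at percentiles 94.4 and 92.7, and in short RNA at 81.7 and 91.6. In mRNA no measured histone row stood above percentile 58.4 in either library.

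**Figure D1:**
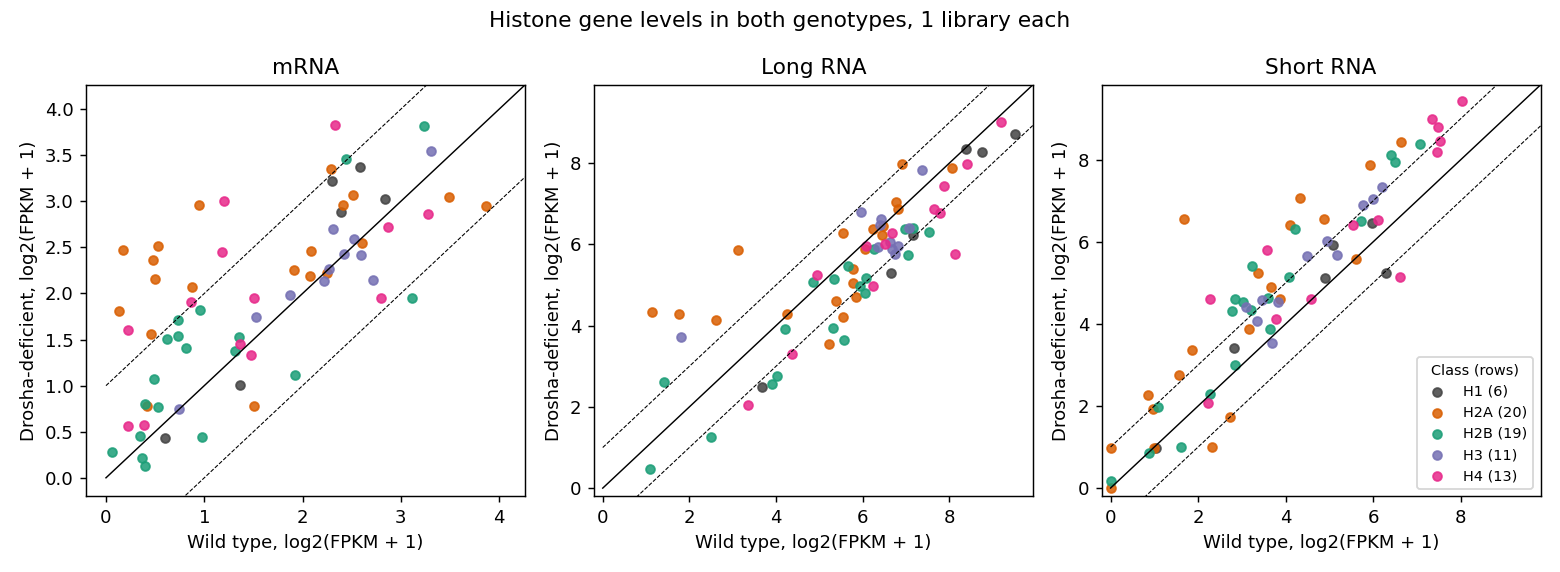
Level of each histone row in wild type (x axis) and Drosha-deficient cells (y axis), as log2(FPKM + 1), in mRNA, long RNA and short RNA, coloured by class. The solid line marks equal levels and the dashed lines a log2 difference of 1 either way; 34 of 60 measured rows lie on or above the upper dashed line in short RNA and 18 of 69 on or below the lower one in long RNA.

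Beside the counts of each class stand the shares of all measured rows. In mRNA 8.64% were higher and 7.93% lower, in long RNA 6.26% and 6.89%, and in short RNA 14.8% and 18.4%. Of the linker histones H1, 5 rows were measured in mRNA, 6 in long RNA and 5 in short RNA, and none was called higher. So few rows hold few calls at such shares. All 6 H1 rows had a difference below 0 in long RNA, with a median of -0.87, and 2 were called lower. Hist1h1a, the H1 gene with the highest wild-type level in long RNA, had 738 FPKM in wild-type and 420 in Drosha-deficient long RNA, 5.00 and 9.35 FPKM in mRNA and 62.3 and 87.5 in short RNA. Its difference was -0.81 in long RNA and 0.79 in mRNA, and it was called in no fraction. Hist1h1b had 430 and 311 FPKM in long RNA, and 4.26 and 6.36 in mRNA. Hist1h1d was nearly level in long RNA, at 334 and 327 FPKM, with 3.93 and 8.33 FPKM in mRNA. Hist1h1c was the H1 row called lower in short RNA, at 78.0 and 37.1 FPKM, and had 142 and 74.1 FPKM in long RNA. The rows called lower in long RNA were Hist1h1e, from 100 to 38.0 FPKM, and Hist1h1t, the testis-specific H1, from 11.8 to 4.62 FPKM.

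H2A rows made up most of the rows called higher in mRNA and in long RNA. In mRNA 9 of 19 measured H2A rows were higher and none lower, with a median of 0.55. In long RNA their median was 0.01, with 5 of 20 rows higher and 3 lower. In short RNA it was 1.46, with 11 of 16 higher and 2 lower. Hist1h2ad was higher in all 3 fractions. It had 3.87 and 9.23 FPKM in mRNA, 118 and 251 in long RNA and 98.6 and 347 in short RNA, with differences of 1.07, 1.08 and 1.80. Hist1h2ab, the most abundant H2A row in wild-type long RNA, had 266 and 234 FPKM there, 4.72 and 7.39 in mRNA, and was higher in short RNA alone of the 3, at 59.7 and 234 FPKM. Hist1h2ac was higher in mRNA (0.834 and 3.20 FPKM) and in short RNA (28.4 and 93.8 FPKM), while long RNA gave 111 and 117 FPKM. Hist1h2ag had 2.75 and 3.77 FPKM in mRNA, 107 and 131 in long RNA and 19.1 and 134 in short RNA. Each of these rows had its largest difference in short RNA.

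Several H2A rows of low wild-type level had the largest differences in mRNA. Hist1h2ah had 0.126 and 4.56 FPKM there, a difference of 2.30, while in long RNA it had 54.1 and 41.3 FPKM. Hist1h2an held 3 fragments in wild-type and 35 in Drosha-deficient mRNA (0.390 and 4.13 FPKM), and 34 and 129 fragments in long RNA (5.08 and 16.6 FPKM). The RefSeq pseudogene Hist1h2aj had 0.445 and 4.73 FPKM in mRNA and 1.19 and 19.2 in long RNA, the largest difference of any histone row there at 3.21, and was at 0 in both short RNA libraries. Hist1h2al, a pseudogene that lies apart from the rest at chr13:51202688-51203065 (mm10/GRCm38), had 0.409 and 3.47 FPKM in mRNA, 46.1 and 76.6 in long RNA and 9.33 and 36.8 in short RNA. Their wild-type mRNA values rest on a handful of fragments, so their differences in that fraction are imprecise. The lower H2A rows in long RNA were Hist1h2aa, a testis-specific H2A, from 36.3 to 10.7 FPKM, Hist1h2ao and the Hist2h2aa2 row.

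H2B rows were the class most often called lower in long RNA. There 8 of 19 were lower, 1 was higher and 17 had a difference below 0, with a median of -0.91 and a summed level of 1105 FPKM in wild-type and 616 in Drosha-deficient cells. In short RNA the same class had 11 of 15 rows higher and none lower, with all 15 above 0 and a median of 1.32. In mRNA 12 were measured, 1 of them higher and 1 lower, with a median of 0.59. Hist1h2bb had 183 and 77.6 FPKM in long RNA and 134 and 335 in short RNA, differences of -1.23 and 1.32 in opposite directions. Hist1h2bg had 131 and 52.7 FPKM in long RNA, 51.8 and 89.7 in short RNA and 0.936 and 2.53 in mRNA. Hist1h2bk had 143 and 83.5 FPKM in long RNA, 90.1 and 246 in short RNA and 1.56 and 1.88 in mRNA. Hist2h2bb was the H2B row called higher in mRNA, at 4.45 and 10.0 FPKM, with 124 and 82.8 FPKM in long RNA. Hist1h2ba, the testis-specific H2B, was lower in long RNA with 15.3 and 5.83 FPKM.

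H3 was the class with its mRNA median nearest to 0. None of 10 measured was called there, the median was 0.03, and the summed level was 45.2 FPKM in wild-type and 46.5 in Drosha-deficient cells. In long RNA their median was -0.41, with 1 of 11 higher and none lower, and in short RNA it was 1.07, with 7 of 11 higher. Hist1h3c had the highest wild-type level in long RNA, 164 FPKM against 228 in Drosha-deficient cells, and 8.90 and 10.7 FPKM in mRNA. Hist1h3d had 134 and 83.8 FPKM in long RNA and 5.55 and 3.43 in mRNA. Hist1h3g had 111 and 61.7 FPKM in long RNA and 4.37 and 4.38 in mRNA. Hist2h3b had 107 and 53.6 FPKM in long RNA and was level in mRNA, at 4.76 and 5.02 FPKM. The H3 row called higher in long RNA was Hist2h3c2, with 2.50 and 12.3 FPKM.

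H4 rows were split in mRNA and mostly below 0 in long RNA. In mRNA 5 of 11 measured were higher and none lower, with a median of 0.44 that became -0.15 with a minimum of 5 FPKM, and in long RNA 5 of 13 were lower and 12 had a difference below 0, with a median of -0.52. In short RNA 5 of 13 were higher and 1 lower. Hist1h4d, the most abundant, had 585 and 518 FPKM in long RNA, 8.72 and 6.26 in mRNA and 263 and 687 in short RNA. Hist1h4b had 341 and 252 FPKM in long RNA, 6.30 and 5.60 in mRNA and 177 and 445 in short RNA. Hist1h4c was higher in mRNA with 1.29 and 7.04 FPKM, while long RNA gave 233 and 172 FPKM. Hist1h4i had 4.04 and 13.2 FPKM in mRNA and 91.3 and 63.3 in long RNA, so its values too were apart in opposite directions. Hist1h4m had the lowest difference of all histone rows in long RNA, at 282 and 53.4 FPKM, a difference of -2.38. It was lower in short RNA too, at 97.1 and 34.2 FPKM. Hist1h4n is its near copy, and the sum of both differed by -1.60 in long RNA and -0.27 in short RNA.

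The small clusters outside chromosome 13 held few rows. Hist3h2ba on chromosome 11 was the 1 histone row called lower in mRNA, with 7.68 and 2.88 FPKM, and was lower in long RNA, with 46.2 and 11.5 FPKM. In short RNA it had 6.22 and 6.94 FPKM. Its neighbours were the row of Hist3h2a and Trim17 (40.7 and 23.2 FPKM in long RNA, 3.23 and 3.55 in mRNA) and the pseudogene Hist3h2bb-ps (4.70 and 1.38 FPKM in long RNA). All 3 Hist3 rows thus had differences below 0 in long RNA, with a median of -1.26. Hist4h4 on chromosome 6 was lower in long RNA, with 19.8 and 8.87 FPKM, and had 12.7 and 16.4 FPKM in short RNA and less than 1 FPKM in mRNA. Of the 9 Hist2 rows 5 were measured in mRNA, with a median of 1.02, and their medians elsewhere were -0.58 (long RNA) and 1.11 (short RNA). The 2 blocks of Hist1 were alike in their medians: -0.42 in long RNA for the 24 rows of chr13:21715763-22043676 and -0.44 for the 31 rows of chr13:23531050-23934851, and 0.39 and 0.34 in mRNA.

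The strand of the gene went with the difference in mRNA and in long RNA. Histone genes on the minus strand had a median difference of 0.79 in mRNA, with 10 of 22 measured higher, none lower and 20 above 0. Those on the plus strand had a median of 0.00, with 2 of 29 higher and 1 lower. Of other minus-strand rows 5.94% were higher and 5.57% lower in mRNA, and of other plus-strand rows 5.17% and 6.96%. The summed mRNA level of minus-strand genes went from 49.4 to 103 FPKM and that of plus-strand genes from 130 to 132 FPKM. The median mRNA level of the 27 minus-strand genes was 0.834 FPKM in wild-type and 3.20 in Drosha-deficient cells. For the 33 plus-strand genes it was 3.83 and 3.43 FPKM. The minus-strand difference thus rests on low wild-type values. Its median was 0.35 with a pseudocount of 5 and 1.44 with one of 0.1, while the plus-strand median stayed at 0.00. In long RNA the minus-strand median was -0.12, with 4 of 27 higher and 3 lower, and the plus-strand median was -0.84, with 1 of 33 higher, 13 lower and 30 below 0. Of other minus-strand rows 3.51% were higher and 3.73% lower in long RNA, and of other plus-strand rows 3.02% and 4.47%. The long RNA sums were 2266 and 2037 FPKM on the minus and 4854 and 3251 FPKM on the plus strand. In short RNA the medians were 1.07 and 1.06. Copies with nearly identical promoters, described below, enter both strands. In long RNA Hist1h2ap and Hist1h2bq are among the minus-strand rows called higher. Hist1h2ao, Hist1h4m and Hist1h2br are among the plus-strand rows called lower, and each of these pairs had a sum below wild type. The part of read assignment between copies in the strand difference was not tested. The difference between strands was not tested, since neighbouring histone genes share sequence and each library was made once.

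Within classes the same order of strands was seen in long RNA for H2A, H2B, H3 and H4. For H2A the long RNA medians were 0.10 over 8 minus-strand and -0.73 over 9 plus-strand rows, for H2B -0.19 and -1.23, for H3 0.66 and -0.78 and for H4 -0.44 and -1.03. Without the Hist2h2aa2 row, whose strand is that of an H3 gene, the plus-strand H2A median was -0.45 over 8 rows. All 10 plus-strand H2B rows lay below 0 and all 4 minus-strand H3 rows above 0. For the 6 H1 rows the order was the other way, at -0.92 on the minus and -0.87 on the plus strand. In mRNA all 8 minus-strand H2A rows lay above 0 with a median of 1.15, while the plus-strand median was -0.04. Of 6 measured minus-strand H4 rows 5 were higher in mRNA, with a median of 1.33, and none of 5 plus-strand H4 rows was, with a median of -0.15. For H2B the mRNA medians were 0.60 over 3 minus-strand and 0.48 over 8 plus-strand rows, and for H3 0.24 over 3 and -0.01 over 5. H1 was again the other way in mRNA, at 0.06 over 2 minus-strand and 0.79 over 3 plus-strand rows. The strands also differed in both blocks of Hist1, where the long RNA medians were 0.26 and -1.14 in the first and -0.24 and -0.74 in the second block, minus strand first. The first block holds the inverted copies described below.

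Over all other genes the strands lay closer together. For all other rows with a strand in RefSeq, the mRNA medians were 0.02 for 4580 minus-strand and -0.01 for 4755 plus-strand rows, and the long RNA medians were -0.02 and -0.04. Among other rows spanning 300 to 1000 bases the long RNA medians were 0.60 for 21 minus-strand and -0.00 for 17 plus-strand rows, and the mRNA medians -0.18 for 24 and -0.33 for 20 rows. In mRNA 29.2% of these minus-strand short rows were higher and 12.5% lower, and 15% and 15% of the plus-strand ones. In long RNA the shares were 33.3% and 14.3% on the minus and 29.4% and 11.8% on the plus strand. These short rows are few. Their minus-strand median was the higher one in mRNA and in long RNA, the same direction as in the histone genes. The labels do not say whether the authors counted reads by strand.

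**Figure D2:**
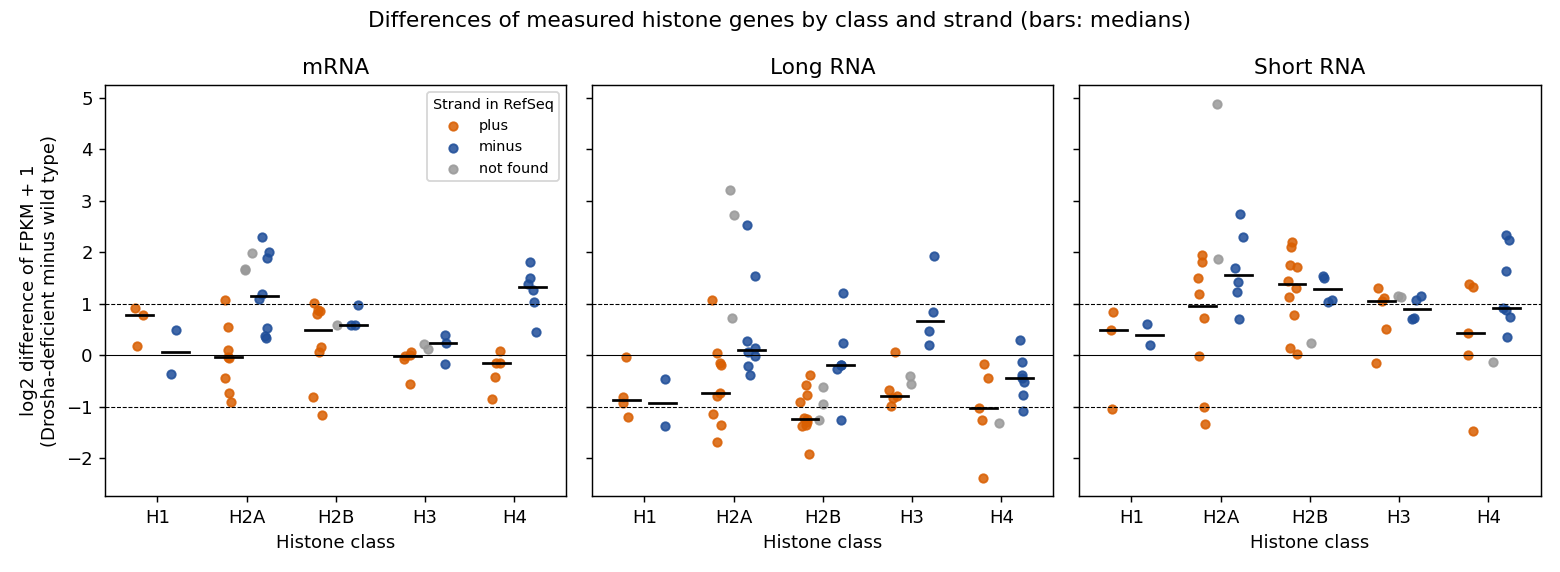
Difference of each measured histone row, log2 of FPKM + 1 in Drosha-deficient minus wild type (y axis), by class (x axis) and strand, with a short bar at the median of each strand; grey points have no strand in the promoter table. In mRNA the minus-strand medians of H2A and H4 are 1.15 and 1.33 and the plus-strand ones -0.04 and -0.15, and in long RNA the 10 plus-strand H2B rows all lie below 0.

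**Figure D3:**
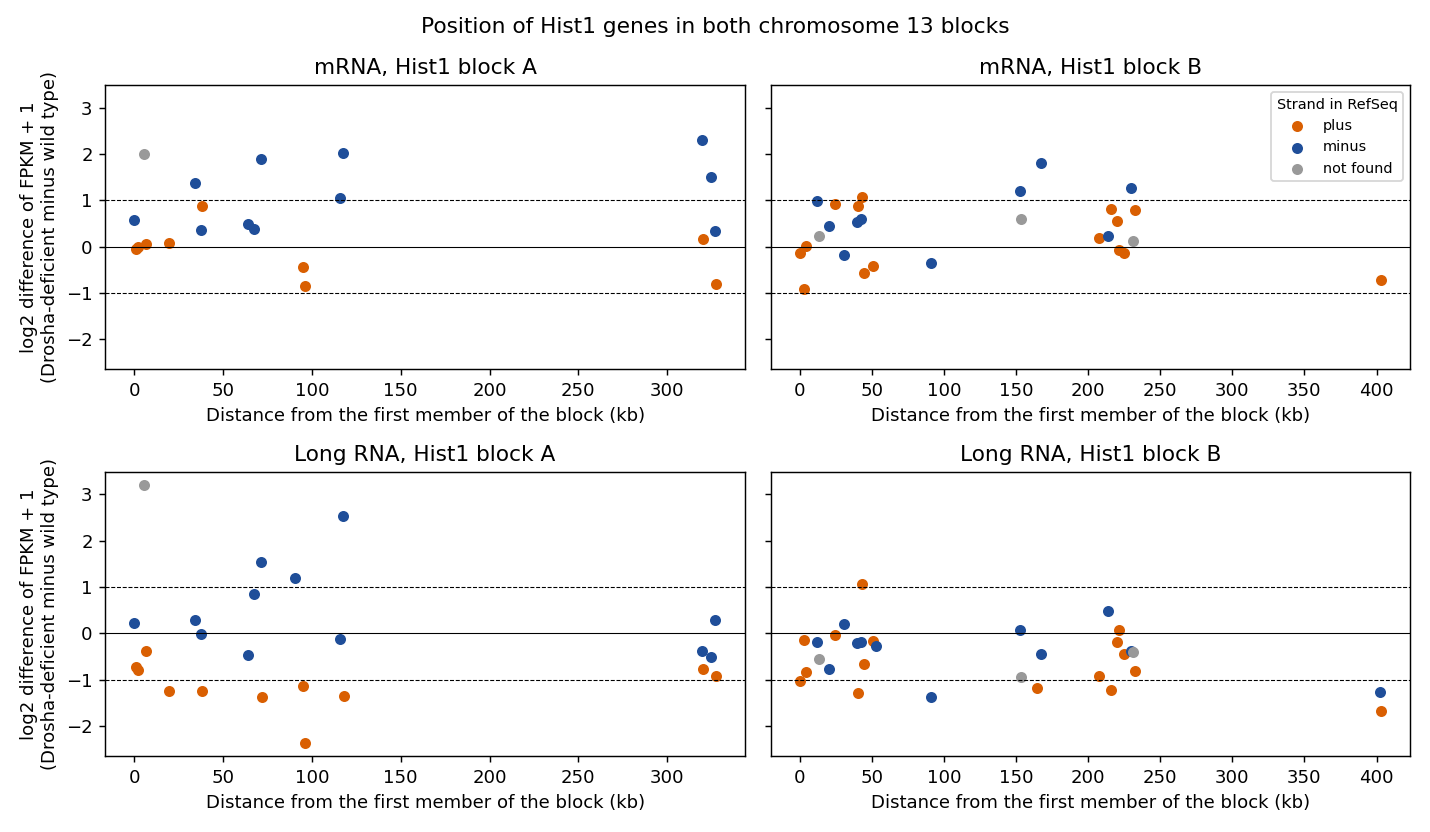
Difference of the measured Hist1 genes (y axis, log2 of FPKM + 1, Drosha-deficient minus wild type) against distance in kb from the first gene of each chromosome 13 block (x axis), in mRNA and long RNA, coloured by strand. Genes on both strands alternate along each block, and in block A the 11 plus-strand genes all lie below 0 in long RNA.

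Many H2A and H2B genes sit head to head and share the stretch between their starts. In 10 such pairs the starts lay 163 to 280 bases apart with the minus-strand gene on the left. Among them, Hist1h2ap with Hist1h2br and Hist1h2bq with Hist1h2ao are made of genes that also belong to the inverted copies described below. Counting the sign, so that a more negative value ranks lower, the minus-strand gene had the higher difference in 9 of the 10 pairs in long RNA, with Hist1h2bf and Hist1h2ad as the exception. By size alone the plus-strand gene differed more in 7 of the 10. In mRNA the signed order held in 3 of the 6 pairs with both genes measured and in short RNA in 3 of 5. Hist1h2ah and Hist1h2bk are printed because their bidirectional promoter is read from the same DNA on opposite strands and their mRNA values were far apart, 0.126 and 4.56 FPKM for Hist1h2ah and 1.56 and 1.88 for Hist1h2bk. The 150 bases before each annotated start are given 5′ to 3′ from RefSeq, GRCm38.p6, at chr13:22035671-22035820 (plus strand) for Hist1h2bk and chr13:22035644-22035793 (minus strand) for Hist1h2ah. Capitals mark CCAAT or ATTGG, its complement, and the octamer ATGCAAAT or its complement ATTTGCAT.
Hist1h2bk: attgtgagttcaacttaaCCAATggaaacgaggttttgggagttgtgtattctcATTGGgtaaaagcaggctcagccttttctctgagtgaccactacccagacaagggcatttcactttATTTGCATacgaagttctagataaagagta
Hist1h2ah: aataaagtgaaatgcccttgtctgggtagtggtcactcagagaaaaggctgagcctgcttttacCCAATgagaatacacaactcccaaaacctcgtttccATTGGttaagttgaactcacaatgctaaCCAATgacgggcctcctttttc
The octamer, the sequence known to be bound by POU factors such as Oct1 at H2B promoters, lay within the window from 250 bases before to 50 bases after the start in 13 of 60 histone promoters, counting both strands, against 1.75% of all 27025 RefSeq promoters. Those were 7 of 17 H2A and 6 of 16 H2B promoters and none of H1, H3 or H4, and head-to-head genes count the same site more than once. Without the promoter of Hist2h3c1, an H3 gene that stands for the Hist2h2aa2 row, the H2A count was 7 of 16. CCAAT or ATTGG lay in 51 of 60 histone promoters, against 37.9% of all, with H4 the exception at 3 of 12. TATAAA or TTTATA lay in 34 of 60, against 14.2% of all. A match describes these letters only.

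Part of the first Hist1 block holds genes with nearly identical promoters in inverted order on opposite strands. Hist1h2ao and Hist1h2ap, Hist1h4m and Hist1h4n, and Hist1h2br and Hist1h2bq are such pairs, with the plus-strand gene first. Their promoter windows, aligned at the best offset, had 0 mismatches over 200 aligned bases, 1 over 299 and 0 over 300. For Hist1h2ao and Hist1h2ap that offset was 100 bases, so their annotated starts lie 100 bases apart in the shared sequence. The 150 bases before the annotated start of the H4 and H2B pairs are printed to show how alike the promoters of genes with unlike values were, from RefSeq, GRCm38.p6. They lie at chr13:21811596-21811745 (plus) for Hist1h4m, chr13:21832198-21832347 (minus) for Hist1h4n, chr13:21833593-21833742 (plus) for Hist1h2br and chr13:21810200-21810349 (minus) for Hist1h2bq. Capitals mark TATAAA in the H4 and CCAAT or ATTGG in the H2B promoters.
Hist1h4m: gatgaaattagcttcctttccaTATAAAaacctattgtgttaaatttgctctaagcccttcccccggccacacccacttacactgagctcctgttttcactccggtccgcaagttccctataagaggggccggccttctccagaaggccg
Hist1h4n: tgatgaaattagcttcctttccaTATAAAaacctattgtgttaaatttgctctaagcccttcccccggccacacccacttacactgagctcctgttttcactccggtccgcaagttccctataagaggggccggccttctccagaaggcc
Hist1h2br: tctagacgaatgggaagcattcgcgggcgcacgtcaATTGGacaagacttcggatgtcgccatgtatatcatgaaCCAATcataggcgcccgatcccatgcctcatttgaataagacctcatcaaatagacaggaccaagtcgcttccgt
Hist1h2bq: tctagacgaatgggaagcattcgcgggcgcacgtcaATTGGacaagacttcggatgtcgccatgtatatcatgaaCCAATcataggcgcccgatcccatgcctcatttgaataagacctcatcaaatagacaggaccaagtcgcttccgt
The printed H4 stretches had 0 mismatches over 149 aligned bases, with the annotated starts 1 base apart, and the H2B stretches 0 over 150.

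In wild-type cells the plus-strand copy had the higher value of each pair, and in Drosha-deficient cells the copies were closer to each other. Hist1h2ao had 56.5 FPKM and Hist1h2ap 2.38 in wild-type long RNA, and they had 25.0 and 18.5 in Drosha-deficient long RNA. The ratio of plus to minus copy thus went from 23.8 to 1.35 in long RNA and, at 10.2 and 0.925 against 7.26 and 6.76 FPKM, from 11.1 to 1.07 in mRNA. Hist1h4m and Hist1h4n had 282 and 66.5 FPKM in wild-type and 53.4 and 61.1 in Drosha-deficient long RNA, a ratio that went from 4.23 to 0.874. In mRNA that ratio went from 7.26 to 1.04 and in short RNA from 8.95 to 0.620. Hist1h2br and Hist1h2bq had 14.1 and 1.66 FPKM in wild-type and 4.88 and 5.12 in Drosha-deficient long RNA, a ratio of 8.50 and then 0.953. Reads that match both copies of a pair cannot be assigned to either, so the values of single copies are uncertain. The sum of a pair does not depend on how such reads were split between the copies. It is no firmer if they were dropped. Only promoters were compared, so the number of shared reads is not known.

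The sum of each pair was below its wild-type value in long RNA. It went from 58.8 to 43.5 FPKM for Hist1h2ao with Hist1h2ap, from 348 to 115 FPKM for Hist1h4m with Hist1h4n and from 15.7 to 10.0 FPKM for Hist1h2br with Hist1h2bq. On the log2(FPKM + 1) scale these were -0.43, -1.60 and -0.61, so the H4 pair alone passed 2-fold, at 3.04-fold lower. In mRNA the sums were 11.1 and 14.0 FPKM for the H2A pair and 6.78 and 5.63 FPKM for the H4 pair. The sum of Hist1h2br with Hist1h2bq was 1.02 and 0.571 FPKM there, 1.78-fold lower at a low level. A like exchange was seen in Hist2, where in long RNA the Hist2h2aa2 row had 46.0 and 17.4 FPKM and Hist2h2aa1 7.74 and 56.9. Their sum went from 53.8 to 74.4 FPKM, with Hist2h2aa2 5.95 times Hist2h2aa1 in wild type and Hist2h2aa1 3.27 times Hist2h2aa2 in Drosha-deficient cells. The names of this pair are exchanged between the tables and RefSeq, so the strand of Hist2h2aa1 was not used.

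**Figure D4:**
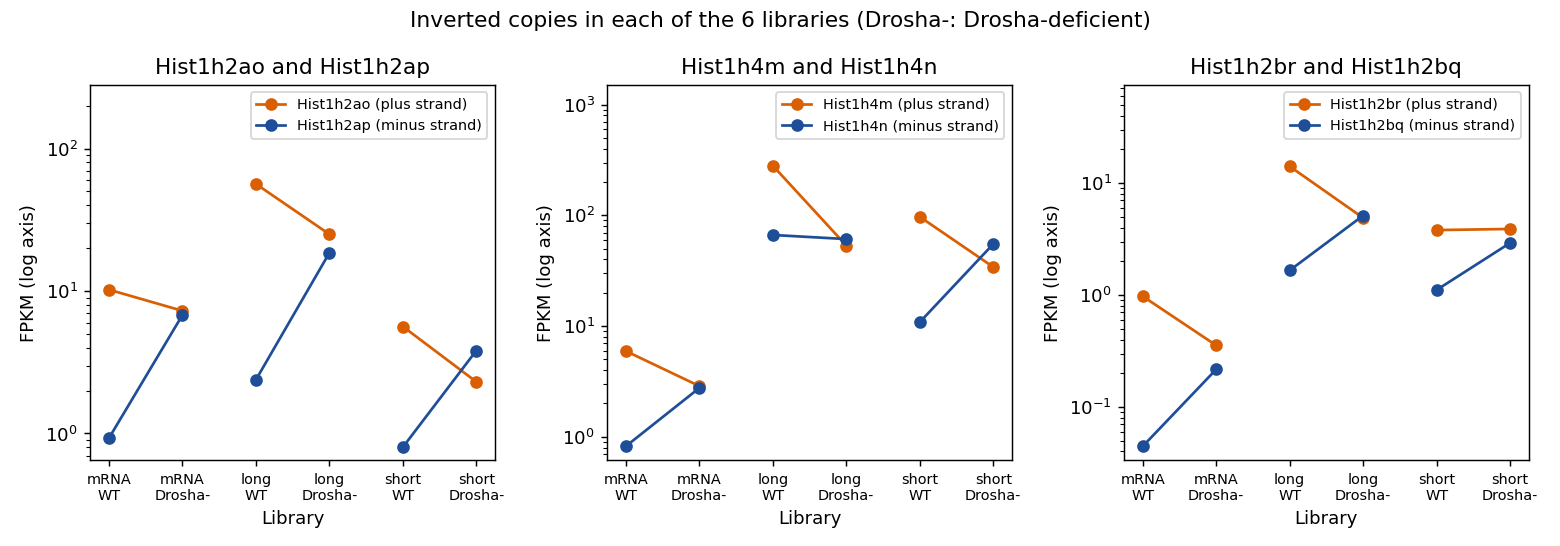
FPKM (log axis) of the 3 pairs of inverted copies in the 6 libraries (x axis: mRNA, long RNA and short RNA of wild-type, WT, and Drosha-deficient cells, Drosha-), with the plus-strand copy in orange and the minus-strand copy in blue. In long RNA the ratio of plus to minus copy goes from 23.8 to 1.35, from 4.23 to 0.874 and from 8.50 to 0.953.

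Short RNA was the fraction in which most histone genes were higher. The largest difference was that of Hist2h2aa1, with 2.18 FPKM in wild-type and 93.5 in Drosha-deficient short RNA, a difference of 4.89. Hist1h2ag followed at 2.75, and Hist1h4k at 2.34 with 3.83 and 23.5 FPKM. Hist2h2ac, at 16.3 and 84.0 FPKM, and Hist1h4n, at 10.8 and 55.1 FPKM, came next. Hist1h2bp had 8.37 and 41.9 FPKM and Hist1h2bj 17.6 and 78.5. Beside Hist1h4m and Hist1h1c, the rows called lower in short RNA were Hist1h2aa, with 4.01 and 0.985 FPKM, and Hist1h2ao, with 5.63 and 2.30 FPKM. The short RNA sum of Hist1h4m with Hist1h4n went from 108 to 89.3 FPKM, a difference of -0.27. That of Hist1h2ao with Hist1h2ap went from 6.43 to 6.13 FPKM, a difference of -0.06. The short RNA calls of Hist1h4n, Hist1h4m and Hist1h2ao thus hold for single copies and not for their pairs. Low values in this fraction rest on few fragments: Hist1h2bn had 8 and 19 fragments there.

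The order of the histone genes was partly shared between fractions, while the sign of the difference often was not. Across the 57 rows measured in mRNA and long RNA, Pearson's r of the differences was 0.62 and Spearman's rho 0.53, as a description over genes that share sequence and libraries. Of these rows 28 lay above 0 in mRNA and below 0 in long RNA, and 2 lay the other way. Across 60 rows in long and short RNA r was 0.62 and rho 0.59. There 38 rows lay below 0 in long and above 0 in short RNA, and none lay the other way. Counting the sign, so that a more negative value ranks lower, 56 had the higher difference in short RNA. By size some differed more in long RNA, such as Hist3h2ba, with -1.92 in long and 0.14 in short RNA. Hist1h2ad, Hist2h2aa1 and Hist1h2ap were called higher in all 3 fractions. Hist1h2ap and Hist2h2aa1 each have a near copy, and the sums of Hist1h2ap with Hist1h2ao differed by 0.31 in mRNA, -0.43 in long RNA and -0.06 in short RNA, so the calls of Hist1h2ap hold for the single copy and not for the pair. The long RNA sum of Hist2h2aa1 with the Hist2h2aa2 row, 53.8 and 74.4 FPKM, differed by less than 2-fold, so that call too holds for the single copy only. In mRNA and short RNA the Hist2h2aa2 row also holds Hist2h3c1, and no sum was taken. Hist3h2ba was the 1 row lower in both mRNA and long RNA, and no row was higher in mRNA and lower in long RNA.

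**Figure D5:**
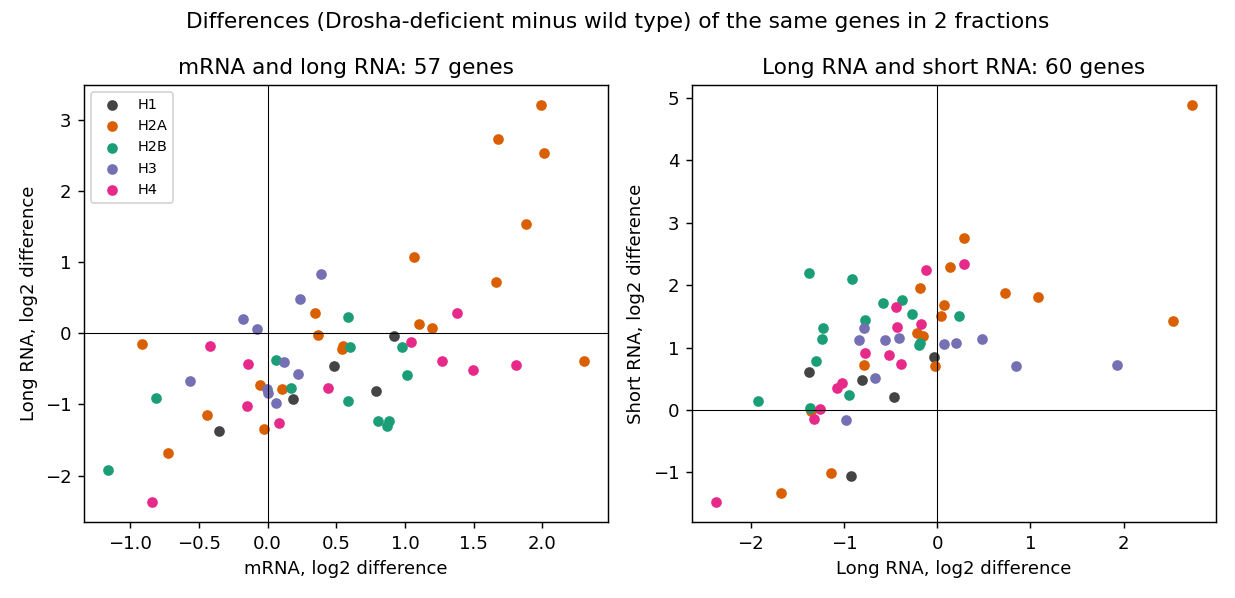
Difference (log2 of FPKM + 1, Drosha-deficient minus wild type) of the same histone rows in mRNA (x axis) and long RNA (y axis), left, and in long RNA (x axis) and short RNA (y axis), right, coloured by class. On the left 28 of 57 rows lie above 0 in mRNA and below 0 in long RNA, and on the right 38 of 60 lie below 0 in long RNA and above 0 in short RNA.

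Few genes that make, process or decay histone mRNA were called. Of all measured rows 8.64% were higher and 7.93% lower in mRNA, and 6.26% and 6.89% in long RNA. Lists this short hold few calls at such shares. Of 16 measured factors of histone transcription and mRNA processing none was called in mRNA, where their median was 0.18, and 1 was lower in long RNA, where the median was 0.03. That gene was Sympk, a scaffold of the cleavage complex, with 29.6 and 13.5 FPKM. Slbp, which binds the stem-loop, had 108 and 92.2 FPKM in mRNA and 51.5 and 36.2 in long RNA. Npat, the coactivator that starts histone transcription in S phase, had 8.69 and 10.9 FPKM in mRNA, and Casp8ap2, its partner in histone locus bodies, 10.6 and 12.9. The U7 particle proteins Lsm10 and Lsm11 had 25.1 and 15.4 FPKM and 7.27 and 6.92 FPKM in mRNA, and Zfp473, a zinc finger protein of the same machinery, 7.54 and 10.6. Eri1, an exonuclease that trims the stem-loop and was counted with the processing factors, had 16.4 and 26.9 FPKM in mRNA and 19.2 and 27.3 in long RNA. Genes of histone mRNA decay had medians of 0.35 over 10 in mRNA and 0.09 over 9 in long RNA, with none called. Their mRNA median was close to that of the histone rows, 0.39.

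Replacement histones, most of whose mRNAs carry poly(A) tails, had medians below 0 in mRNA and in long RNA. Over 11 measured of 15 their median was -0.51 in mRNA, and it was -0.55 in long RNA, with H2afj lower in mRNA (17.1 and 7.64 FPKM) and no other call. H3f3a, which encodes H3.3, lay the other way with 65.5 and 94.4 FPKM in mRNA and 18.3 and 35.8 in long RNA, and H3f3b and H2afy2 also lay above 0 in both. In short RNA the median over 6 was 0.38, with H2afv higher and H2afy lower. In the same mRNA libraries the replication-dependent genes had their median of 0.39. Of 20 measured histone chaperones 1 was higher in mRNA, Supt6, with 32.6 and 81.1 FPKM, and none was called in long RNA. Of all measured rows 8.64% were higher and 7.93% lower in mRNA, and 6.26% and 6.89% in long RNA. The 31 measured genes of S phase lay near 0, with a median of 0.13 in mRNA, and -0.02 in long RNA. The 1 called was Ccne2, cyclin E2, higher in both, with 6.16 and 15.7 FPKM in mRNA and 9.68 and 22.9 in long RNA.

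In the authors' deposited tables none of the 69 histone rows was significant in any fraction. The lowest q-values of the authors' deposited tables among them were 0.999 in mRNA, 0.258 in long RNA and 0.0849 in short RNA, and those tables mark 19, 19 and 85 rows as significant. These q-values rest on 1 library per genotype. The mRNA calls depended on the pseudocount: with a pseudocount of 5 in place of 1, 1 histone row was higher in mRNA and none lower.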

How the data were processed

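Gene-level RNA values of wild-type and Drosha-deficient mouse ES cells were used, 1 library per genotype in each of 3 fractions. The authors deposited them as FPKM in 3 tables whose headers name the wild-type and then the Drosha-deficient value, with q-values, which the authors' deposited tables take from a comparison of single libraries. The submitters' processing notes name Cuffdiff, Cufflinks 2.1.1, TopHat2 2.0.10 and bcl2fastq 1.8.4, and the build mm10/GRCm38. They do not give the annotation, strand setting, library scaling or library sizes. Reads that match several histone copies may have been split, shared or dropped.

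Differences were computed in Python 3.11.15 (pandas 2.3.3, NumPy 2.4.6, matplotlib 3.10.9) as log2((Drosha-deficient FPKM + 1)/(wild-type FPKM + 1)) over all rows with status OK and at least 1 FPKM in 1 library, and called from 1 in size. This scale understates differences of low values. The calculation was checked on simulated data without noise and with folds well beyond 2-fold. That checks the arithmetic and not the reliability of calls near 2-fold or at low levels. Row classes and clusters came from gene names, and strands and promoters from RefSeq, GRCm38.p6. Full values are given for up to 4 genes per class with the highest wild-type level in long RNA, for the called genes with the largest differences, and for Hist3 and Hist4. From the other gene lists, called genes and fixed key factors are named. Inverted copies, head-to-head pairs and strands were chosen after values had been seen. The members and lists were chosen with earlier results of these data known. Alternatives were pseudocounts of 0.1 and 5, a minimum of 5 FPKM or none, centring on the median of all measured rows, leaving out rows with several names and, added after seeing the data, leaving out RefSeq pseudogenes.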

Additional observations from a re-analysis of the deposited data

Results flagged for a closer look

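In 3 H2B genes of Hist1 the difference between genotypes passed 2-fold on the log2(FPKM + 1) scale in opposite directions in long and short RNA. Hist1h2bn had -1.24 in long RNA and 1.13 in short RNA. Hist1h2bp had -1.38 and 2.19, and Hist1h2bb -1.23 and 1.32. Each value compares 1 library with 1 library, and the difference between fractions was not tested.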

How the results depend on the processing

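No paired analysis was possible because each genotype has 1 library per fraction and the labels give no replicate numbers. For the same reason no replicate could be left out. Over all histone rows no median changed sign. Among the medians by class, cluster and strand, that of H4 in mRNA went from 0.44 to -0.15 with a minimum of 5 FPKM. The plus-strand mRNA median of 0.00 became -0.06 with that minimum and -0.005 with centring, and the H2A median in long RNA went from 0.01 to -0.09 without pseudogenes. The Hist2 median in mRNA, 1.02, became 0.19 with no minimum. With a pseudocount of 5, 14 of these medians moved by more than 1.5 times and 18 did not. The count of rows higher in mRNA, 15, became 1 with a pseudocount of 5 and 5 with a minimum of 5 FPKM. The count lower in mRNA, 1, became 4 with a pseudocount of 0.1 and 0 with one of 5. The mRNA median of 0.39 became 0.20 with a pseudocount of 5 and 0.25 with no minimum. The count lower in short RNA, 4, became 1 with a pseudocount of 5. The cause was not tested. Of 41 calls of single histone rows in mRNA and long RNA, 22 fell below the call size with a pseudocount of 5 and 1, Hist1h4h in long RNA, with centring. Depth limits mRNA and short RNA most, where many wild-type values rest on a few fragments.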

Other observations

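The Hist1 region on chromosome 13 also holds 118 rows of other genes, few of which were measured. Their median difference was 0.34 in mRNA, with 3 of 11 higher and 1 lower. In long RNA it was 0.25, with 3 of 13 higher and none lower. Of all measured rows 8.64% were higher and 7.93% lower in mRNA, and 6.26% and 6.89% in long RNA. Among other rows spanning 300 to 1000 bases 19.3% were higher in mRNA and 18.2% in long RNA. With so few measured rows these counts are not clearly apart from such shares. The predicted gene Gm11336 had 0.158 FPKM in wild-type and 2.89 in Drosha-deficient mRNA and 2.70 and 14.4 in long RNA. Gm11295 was higher in both fractions as well, with 5.60 and 17.8 FPKM in mRNA and 3.08 and 7.21 in long RNA. Gm11285 was higher in long RNA, with 0.564 and 4.09 FPKM, and had 3.64 and 3.78 in mRNA. Gm11307 was lower in mRNA, with 3.80 and 1.11 FPKM. Abt1, a gene of ribosome biogenesis in this region, was called in neither, with 22.3 and 32.5 FPKM in mRNA and 16.1 and 19.3 in long RNA. Mir1983 was listed at 0 in wild-type and 1.20 FPKM in Drosha-deficient mRNA and was the 1 row called in short RNA, where it was lower with 426 and 85.5 FPKM.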
